A study of Mus musculus with 4 samples.

Results

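Resting Lyve1 macrophages of the embryonic day 15.5 mouse pancreas were 155 of the 941 cell barcodes in the control library, of 1558 barcodes in the whole series (16.5% of the control barcodes, exact binomial 95% interval 14.2 to 19.0%). They were chosen by counts alone: at least 500 detected genes, at most 10% of UMIs (unique molecular identifiers, each standing for 1 captured transcript) from mitochondrial genes, Lyve1 at 4 or more UMIs, the sum of the cycling genes Mki67, Top2a and Nusap1 under 5 UMIs, and the acinar gene Cpa1 under 1500 CPM (counts per 1000000 UMIs of the cell). Of 925 barcodes that passed the cell filters, 201 held 4 or more Lyve1 UMIs, 46 of these were set aside as cycling, and none of the rest was removed by the Cpa1 limit. Lyve1, the 3 cycling genes and Cpa1 therefore chose the cells, and their values below describe the choice. The same rule found 6 cells among the 617 barcodes of the OGT KO library (0.972%, 0.358 to 2.10%).

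The study profiled sorted fetal pancreas cells with 10x Genomics droplet sequencing. The OGT KO group was PdxCre;OGTflox/flox;CAG GFP, in which Cre driven by Pdx promoter sequence removes Ogt, the enzyme that attaches O-GlcNAc to proteins, and its cells were taken by their own GFP. The control group was OGTflox/flox, labelled WT, with no Cre named, and its cells were taken by E-cadherin GFP. Both groups carried the floxed allele, were collected at embryonic day 15.5, and were labelled as pancreatic epithelial cells. There was 1 library per genotype: the 2 labels of each genotype name sequencing runs of that library and not separate embryos, so no p-value is given. Genotype and sorting marker cannot be told apart.

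Lyve1, a hyaluronan receptor first known from lymphatic endothelium, also marks a class of tissue-resident macrophages that carry the mannose receptor Mrc1 and the folate receptor Folr2. Such macrophages typically lie along blood vessels and in connective tissue, derive in large part from embryonic precursors, and take up debris, hormones and matrix fragments through scavenger receptors. In most organs they stand beside macrophages with more MHC class II and Ccr2, the chemokine receptor that monocytes use to leave the marrow and enter tissue.

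The members held 1795223 UMIs in all. Per cell, the total was 3934 at the lowest, 10445 at the median and 28892 at the highest, with a median of 3158 detected genes and 3.52% mitochondrial UMIs. Levels are given as CPM of the summed cells of a class. A range in brackets after a level is its exact Poisson 95% interval and after a ratio the exact conditional 95% interval, and these cover counting error only. The control library served for 3 comparisons with other cells of the same library. These were 43 dividing Lyve1 macrophages (the same rule with 5 or more cycling UMIs, median 18830 UMIs per cell), 258 Lyve1-low macrophages (Lyve1 at 0 or 1 UMI and C1qa, C1qb and C1qc together at 2000 CPM or more of the cell, median 9482 UMIs) and 33 Ly6c2 monocytes (Ly6c2 at 4 or more UMIs with C1q under that limit, median 9712 UMIs). The monocytes were also limited to Lyve1 at 0 or 1 UMI, and both of the last 2 classes kept the rule's cycling and Cpa1 limits. A further class of 41 Cpa1-high, C1q-low cells (median 22515 UMIs) served to show the level of a macrophage gene in cells that should lack it. No barcode was shared between the 2 libraries. Ogt, the targeted gene, was at 56.7 CPM in the OGT KO library and 61.7 CPM in the control library over all cells passing the filters, with intervals of 52.3 to 61.4 and 57.3 to 66.3 CPM. In Cpa1-high, C1q-low cells, a more like set, Ogt was at 42.4 CPM (35.5 to 50.3) in the OGT KO library and 31.1 CPM (21.4 to 43.6) in the control library. A UMI from a transcript end outside a deleted stretch would not show the deletion, so these values do not check the genotype labels.

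The label was set against marker genes. Lyve1 was found at 161, 1023 and 3675 CPM in the lowest, median and highest member, as the rule required. Mrc1, which the rule did not use, stood at 116, 1113 and 3367 CPM in the lowest, median and highest member, and no member lacked it. Pf4, a platelet-type chemokine also made by resident macrophages, stood at 671, 5485 and 16791 CPM, and Stab1, a scavenger receptor of resident macrophages and sinus endothelium, at 242, 1241 and 3998 CPM. Folr2 stood at 0, 259 and 2709 CPM. Thus 4 of the 5 markers had a UMI in all 155 members and Folr2 in 133. With each cell thinned to 5000 UMIs, which left out 8 shallower members, Folr2 had a UMI in 71.4% of the members, against 12.8% of the Cpa1-high cells and 22.5% of Lyve1-low macrophages (unthinned 85.8%, 46.3% and 39.9%).

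The cells were macrophages by the broader markers as well. All 155 members reached 2000 CPM of summed C1q, a limit the rule did not set, with C1qb, a chain of the first complement component, at 3432 CPM (3347 to 3519) in the members and 398 CPM in the Cpa1-high cells, which had been chosen for low C1q. Csf1r, the receptor for the macrophage growth factor, was at 997 CPM (951 to 1044) in the members and 110.1 CPM in the Cpa1-high cells. Adgre1, which encodes F4/80, was at 436 CPM in the members and 56.5 CPM in the Cpa1-high cells. Lymphatic endothelium, the other well-known carrier of Lyve1, was nearly without trace: its 6 markers summed to 6.68 CPM, Flt4, Reln and Mmrn1 were at 0, and Prox1 held 9 UMIs over all members. The blood endothelial list summed to 71.9 CPM, of which 59.0 CPM was Egfl7, with Tek, Emcn and Cldn5 at 0. The 3 mesothelial markers were at 0, mast cell markers summed to 1.67 CPM, neutrophil markers to 8.91 CPM and dendritic cell markers to 9.47 CPM. Erythroid, lymphoid and mesenchymal lists summed to 53.5, 64.1 and 61.8 CPM. With counts of 0, each such gene could stand at up to 1.67 CPM (3 UMIs of the total).

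The library was labelled as epithelium, and epithelial transcripts were low in the members. The 6-gene epithelium list summed to 302 CPM in the members, 292 CPM in Lyve1-low macrophages and 2435 CPM in Cpa1-high cells, with 0, 234 and 3563 CPM in the lowest, median and highest member. Cdh1, which encodes E-cadherin, was at 7.24 CPM in the members and 142 CPM in Cpa1-high cells, and Epcam at 37.3 CPM in the members and 634 CPM in Cpa1-high cells. Acinar transcripts were present at a like level in every immune class: the acinar list summed to 2665 CPM in the members, 2722 CPM in dividing Lyve1 macrophages, 2649 CPM in Lyve1-low macrophages and 2516 CPM in monocytes, against 40226 CPM in Cpa1-high cells. The per-cell sum ran from 636 to 6563 CPM among the members, and Cpa1 itself reached at most 1176 CPM, under the limit of 1500. The endocrine list summed to 457 CPM in the members, with 0, 204 and 33142 CPM in the lowest, median and highest member, so that a single cell carried much of it. The part of free RNA in these levels was not tested.

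**Figure D1:**
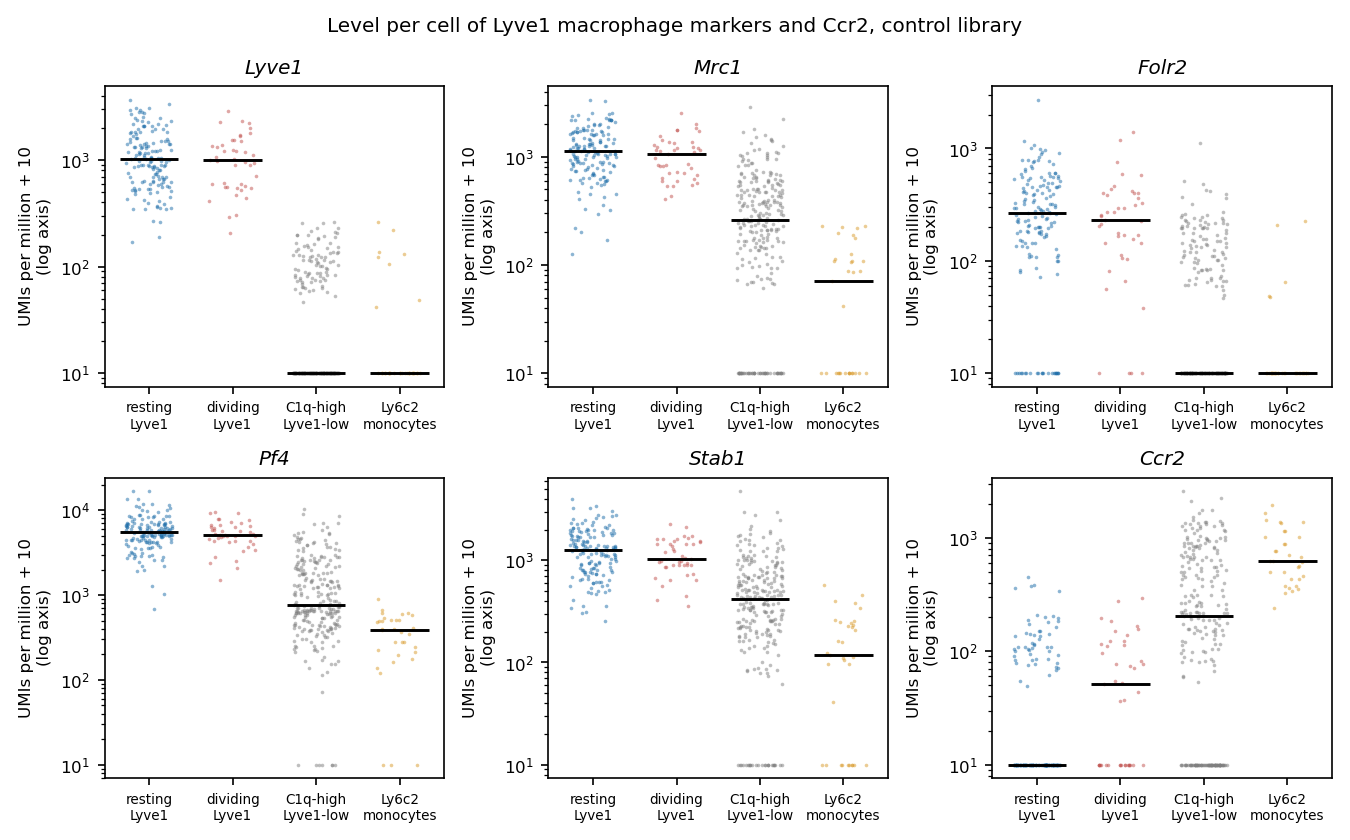
Level of 6 genes in single cells of the control library, as CPM of the cell plus 10 on a log axis, 1 point per cell, with black bars at the class medians; a cell without a UMI lies at 10. For Lyve1, Mrc1, Folr2, Pf4 and Stab1 the medians of the resting members lie near those of the dividing Lyve1 macrophages. They lie above the medians of Lyve1-low macrophages and Ly6c2 monocytes, while single cells overlap. The Ccr2 median of the resting members is 0.

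Promoter letters of the marker genes are shown because these genes were high together in the members, where 2 factors known to bind macrophage promoters were measured: Spi1 (PU.1) at 443 CPM and Maf at 784 CPM. The 250 bases before the start of 4 of the 5 marker genes, from RefSeq on GRCm38.p6 and 5′ to 3′ on the gene's strand, were searched on both strands for GAGGAA, an ETS core of the PU.1 type, and TGCTGA, a MAF half-site. Capitals mark the matches, and a GAGGAA match on the other strand reads TTCCTC. The motifs did not overlap each other in these windows. Folr2 has 2 listed starts, each with 1 TGCTGA match, and the window at the smaller coordinates is given.
Mrc1 (chr2:14229164-14229413, plus strand): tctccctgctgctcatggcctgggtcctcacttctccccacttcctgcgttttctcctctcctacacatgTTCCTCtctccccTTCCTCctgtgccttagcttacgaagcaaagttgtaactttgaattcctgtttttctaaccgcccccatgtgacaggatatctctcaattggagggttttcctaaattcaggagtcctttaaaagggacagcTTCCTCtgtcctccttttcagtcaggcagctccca
Folr2 (chr7:101845332-101845581, minus strand): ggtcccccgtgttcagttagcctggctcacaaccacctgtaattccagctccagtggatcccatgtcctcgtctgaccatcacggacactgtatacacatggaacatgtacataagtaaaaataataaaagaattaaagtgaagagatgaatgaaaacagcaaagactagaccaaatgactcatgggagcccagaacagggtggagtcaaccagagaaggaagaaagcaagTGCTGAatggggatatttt
Pf4 (chr5:90772185-90772434, plus strand): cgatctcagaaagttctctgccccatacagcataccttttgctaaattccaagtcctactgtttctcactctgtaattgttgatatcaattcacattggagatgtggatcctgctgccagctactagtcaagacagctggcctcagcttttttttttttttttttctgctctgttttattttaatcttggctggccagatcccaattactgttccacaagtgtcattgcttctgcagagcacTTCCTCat
Stab1 (chr14:31168642-31168891, minus strand): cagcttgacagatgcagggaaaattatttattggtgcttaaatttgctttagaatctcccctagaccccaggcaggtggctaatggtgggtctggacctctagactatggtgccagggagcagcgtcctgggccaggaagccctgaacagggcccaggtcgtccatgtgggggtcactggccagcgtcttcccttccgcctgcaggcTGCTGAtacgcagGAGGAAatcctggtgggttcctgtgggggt
Mrc1 held 3 GAGGAA matches, Pf4 held 1, and Stab1 held 1 of each motif, and Folr2 held 1 TGCTGA match. GAGGAA occurred in 23.3% and TGCTGA in 16.1% of all 32851 RefSeq windows of this length. The matches are a description of the letters only.

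Among C1q-high cells, Mrc1, Pf4 and Stab1 were no lower just outside the Lyve1 threshold than just inside it. The 22 members with 4 Lyve1 UMIs, at a median of 7501 UMIs per cell, had Mrc1 at 993 CPM, Pf4 at 3956 CPM and Stab1 at 1331 CPM. The 14 C1q-high cells with 3 Lyve1 UMIs, at a median of 7314 UMIs per cell, had Mrc1 at 1059 CPM, Pf4 at 5345 CPM and Stab1 at 1420.1 CPM. Without the C1q limit there were 15 such cells. In these Mrc1 was at 895 CPM and Stab1 at 1191 CPM, lower than just inside, and Pf4 at 4555 CPM, higher. A limit of 350 CPM of Lyve1 in place of 4 UMIs, chosen after the values were seen, kept 161 cells, 146 of them shared with the 155.

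The main contrast was between resting Lyve1 macrophages and the Lyve1-low macrophages of the same library, which share C1q. With 10 CPM added and at least 50 UMIs in 10 or more cells of the higher class, 5394 genes were measured. Of these, 73 (1.35%) were past 2-fold higher in the resting Lyve1 macrophages and 130 (2.41%) past 2-fold lower (3.76% in either direction), and the median log2 ratio was 0.01. Of the Lyve1 macrophage program, a list of genes named for these cells in mouse tissues, 15 of 18 measured genes were past 2-fold higher and none lower, with a median log2 ratio of 1.70. Lyve1, which defined both classes, is among the 15, and the list was chosen with earlier results of these data known. Of 7 measured MHC class II presentation genes, of 10 listed, 5 were past 2-fold lower (4 of 6 without 1 Lyve1-low cell, described below). Of 13 measured monocyte genes, of 20 listed, 7 were past 2-fold lower. A gene higher in the Lyve1-low macrophages was measured only with at least 50 UMIs there, so listed genes with few UMIs there did not count. In what follows, resting cells are the resting Lyve1 macrophages and Lyve1-low cells the Lyve1-low macrophages.

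**Figure D2:**
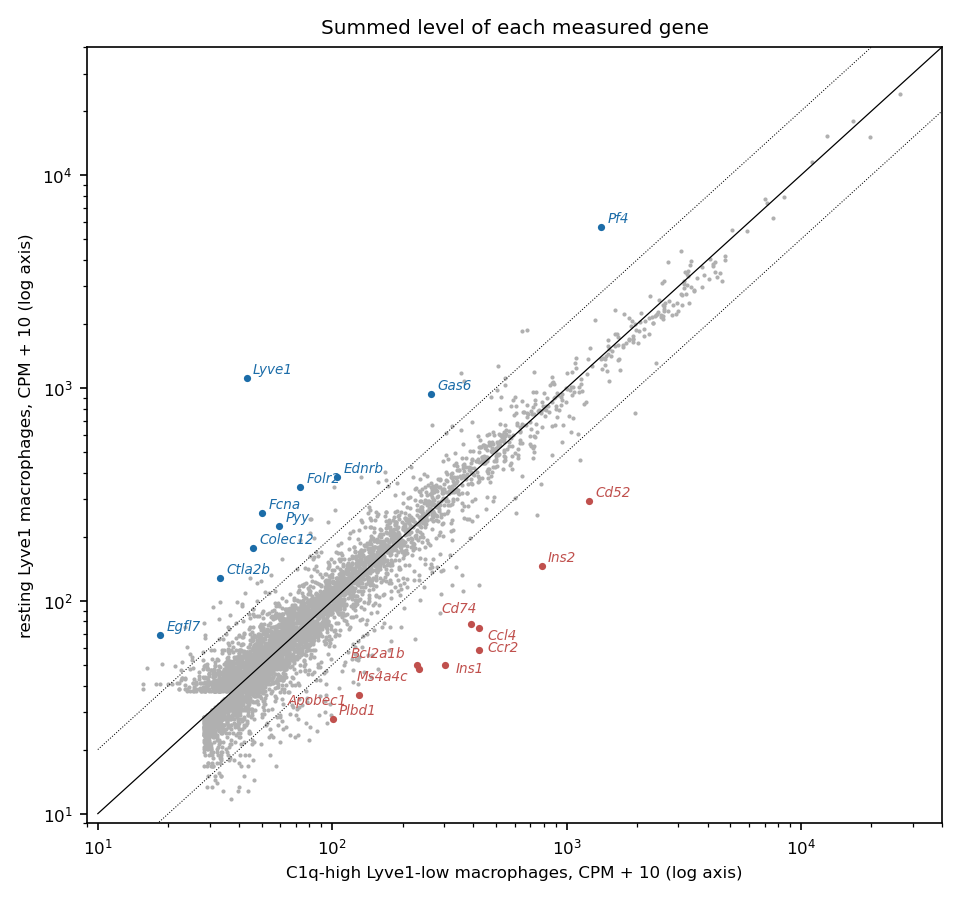
Summed level of each of 5394 measured genes in resting Lyve1 macrophages (vertical, CPM plus 10, log axis) and Lyve1-low macrophages (horizontal, CPM plus 10, log axis), with the line of equal level and dotted lines at 2-fold. Blue points are the 10 genes with the largest ratio among those higher in the resting Lyve1 macrophages and red points the 10 with the largest ratio among those lower; most genes lie between the dotted lines.

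Among receptors of the program, Lyve1 itself was at 1107 CPM (1059 to 1157) in the resting Lyve1 macrophages and 33.2 CPM (26.7 to 40.8) in the Lyve1-low macrophages, as the classes were defined. Mrc1, the mannose receptor, was at 1162 CPM (1113 to 1213) in resting and 345 CPM (323 to 367) in Lyve1-low cells, a ratio of 3.37 (3.12 to 3.65). Folr2 was at 333 CPM (307 to 361) in resting and 63.0 CPM (53.9 to 73.2) in Lyve1-low cells, a ratio of 5.29 (4.45 to 6.30). The ranges of single cells overlapped for both genes: Lyve1-low macrophages held 0, 252 and 2891 CPM of Mrc1 and 0, 0 and 1112 CPM of Folr2 in the lowest, median and highest cell. Stab1 had a ratio of 2.51 (2.35 to 2.69), and Cd163, the hemoglobin scavenger receptor, was at 28.4 CPM in the resting Lyve1 macrophages and 5.53 CPM in Lyve1-low macrophages. Colec12, a scavenger receptor with a collagen-like stem, was at 167 CPM in resting and 36.1 CPM in Lyve1-low cells, and Timd4, which binds phosphatidylserine on dying cells, at 65.2 CPM in resting and 13.6 CPM in Lyve1-low cells. A single member held 29.9% of the members' Timd4 UMIs. Without each class's highest cell Timd4 was at 46.3 CPM in resting and 12.6 CPM in Lyve1-low cells. Ednrb, the endothelin B receptor, was at 372 CPM in resting and 95.1 CPM in Lyve1-low cells, a ratio of 3.91 (3.38 to 4.54).

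Secreted products and enzymes of the program followed the same direction. Pf4 was at 5678 CPM (5568 to 5789) in resting and 1392 CPM (1348 to 1438) in Lyve1-low cells, a ratio of 4.08 (3.93 to 4.23), and its lowest, median and highest level in single Lyve1-low cells was 0, 760.4 and 10223 CPM, so that the upper Lyve1-low cells overlapped the members. Gas6, a ligand of the TAM receptors that bridges macrophages to dying cells, was at 929 CPM in resting and 254 CPM in Lyve1-low cells, a ratio of 3.65 (3.34 to 4.0). F13a1, the A chain of coagulation factor XIII, stood at 40.4, 1779 and 4382 CPM in the lowest, median and highest member and summed to 1843 CPM, against 636 CPM in Lyve1-low macrophages, a ratio of 2.90 (2.73 to 3.07). Fcna, a ficolin that recognises acetylated sugars, was at 247 CPM in resting and 40.2 CPM in Lyve1-low cells. Igf1, insulin-like growth factor 1, was at 338 CPM in resting and 163 CPM in Lyve1-low cells, and Ltc4s, the leukotriene C4 synthase, at 331 CPM in resting and 92.1 CPM in Lyve1-low cells. The 3 measured genes of the program that did not pass 2-fold were Maf at 784 CPM in resting and 508 CPM in Lyve1-low cells, the lectin gene Clec10a at 101 CPM in resting and 47.2 CPM in Lyve1-low cells and Selenop, a selenium carrier, at 3909 CPM in resting and 2709 CPM in Lyve1-low cells. Cbr2, Cd209f and Cd209g lay under the minimum.

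**Figure D3:**
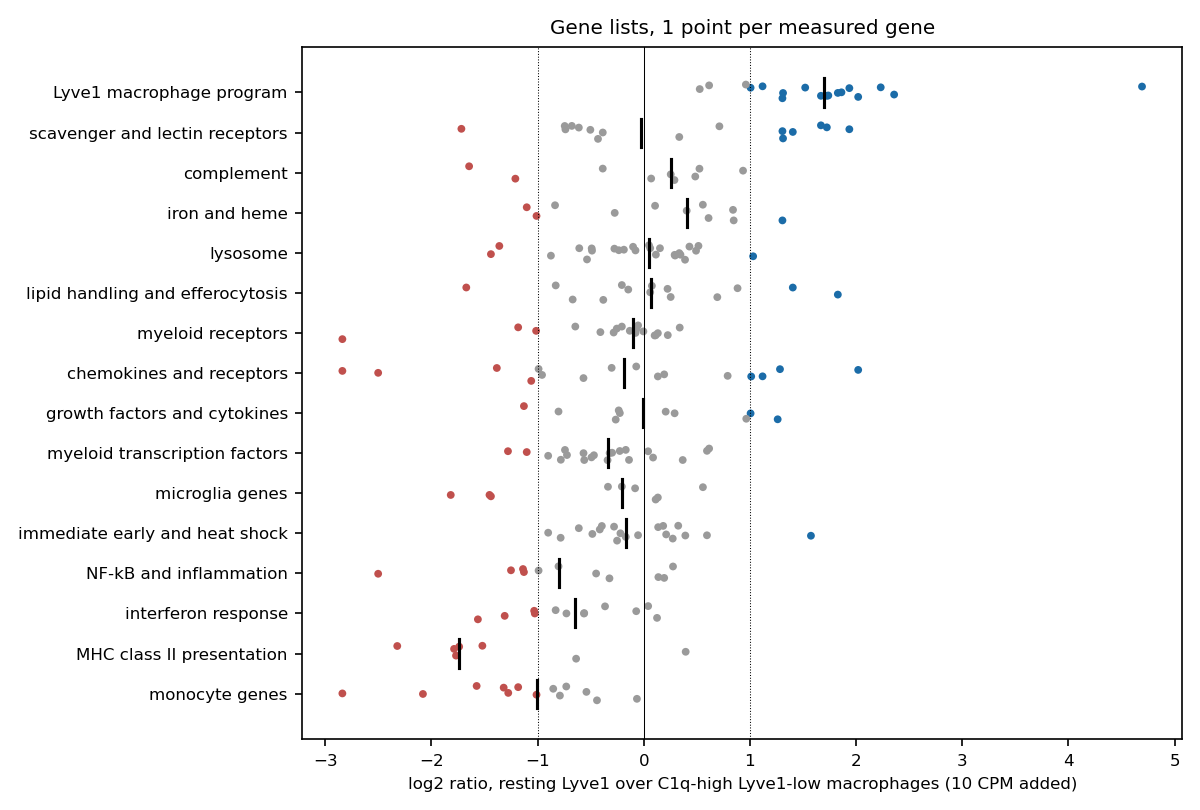
Log2 ratio of resting Lyve1 over Lyve1-low macrophages for each measured gene of 16 lists, with 10 CPM added, 1 point per gene, blue past 2-fold higher and red past 2-fold lower, with black bars at the list medians and dotted lines at 2-fold. The Lyve1 program, which includes the class-defining Lyve1, lies to the right with a median of 1.70. MHC class II and monocyte genes lie to the left with medians of -1.74 and -1.01.

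The 10 genes with the largest ratio among those higher in the resting Lyve1 macrophages were Lyve1, Fcna, Folr2, Pf4, Ctla2b, Colec12, Pyy, Egfl7, Ednrb and Gas6. Ctla2b, a cysteine protease inhibitor with a near-identical paralog that makes its count uncertain, was at 118 CPM in resting and 23.2 CPM in Lyve1-low cells. Egfl7, a secreted factor best known from endothelium and host of a microRNA, was at 59.0 CPM in resting and 8.48 CPM in Lyve1-low cells, with 50.5 CPM in dividing Lyve1 macrophages. Pyy, a gut and islet hormone, rested on 1 cell, which held 73.8% of its UMIs: without that cell it was at 56.6 CPM, against 49.4 CPM in Lyve1-low macrophages. Dab2, an adaptor for endocytosis, was at 1862 CPM in resting and 668 CPM in Lyve1-low cells, and Igfbp4, which binds insulin-like growth factors, at 1063 CPM in resting and 353 CPM in Lyve1-low cells.

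Among the genes lower in the resting Lyve1 macrophages were genes of recruited and antigen-presenting myeloid cells, and genes of other kinds, given below, were lower too. The Lyve1-low cells were not alike, so their summed levels do not describe each cell. The Lyve1-low cell highest in Mrc1, at 2891 CPM, had Ccr2 at 0, and the one highest in Ccr2 had Mrc1 at 139 CPM. Ccr2 stood at 0, 0 and 440.4 CPM in the lowest, median and highest member against 0, 194 and 2573 CPM in single Lyve1-low cells, and summed to 49.0 CPM (39.3 to 60.4) in the members and 412 CPM (388 to 437) in Lyve1-low cells, a ratio of 0.119 (0.0946 to 0.148). Its level in Cpa1-high cells was 45.2 CPM, close to that of the members. Cd74, the invariant chain of MHC class II, was at 68.0 CPM in resting and 379.6 CPM in Lyve1-low cells, a ratio of 0.179 (0.147 to 0.216). H2-Aa, H2-Ab1 and H2-Eb1, the class II chains, held 12, 16 and 5 UMIs over all members, with levels of 6.68, 8.91 and 2.79 CPM in the members and 10.4, 8.47 and 2.82 CPM in Cpa1-high cells; in Lyve1-low macrophages they were at 47.5, 44.2 and 33.5 CPM. A single Lyve1-low cell, with 33534 CPM of the class II list, weighed on these sums: the highest cell of each gene held 35.7%, 32.5% and 47.3% of the UMIs of the 3 chains and 19.2% of those of Cd74. Without that cell, an alternative chosen after the values were seen, 4 of 6 measured class II genes were past 2-fold lower, the list's median log2 ratio was -1.18, and H2-Eb1 no longer reached the minimum. H2-DMa, which loads peptide onto class II, was at 34.0 CPM in resting and 137 CPM in Lyve1-low cells. The class I list did not divide the classes: 0 of 6 measured genes were past 2-fold higher and 0 lower (median log2 ratio -0.27), with B2m, its light chain, at 2508 CPM in resting and 3317 CPM in Lyve1-low cells.

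The rest of the 10 lowest by ratio included Cd52, a small surface glycoprotein of leukocytes, at 285 CPM in resting and 1238 CPM in Lyve1-low cells, and Ccl4, an inflammatory chemokine, at 64.6 CPM in resting and 412 CPM in Lyve1-low cells. A single Lyve1-low cell held 42.4% of the Ccl4 UMIs there; without each class's highest cell Ccl4 was at 60.5 CPM in resting and 239 CPM in Lyve1-low cells. Ms4a4c, a membrane protein of monocytes, was at 37.9 CPM in resting and 224 CPM in Lyve1-low cells, Bcl2a1b, a survival factor of the Bcl2 family with close paralogs, at 40.1 CPM in resting and 221 CPM in Lyve1-low cells, Plbd1, a phospholipase-like protein, at 17.8 CPM in resting and 90.7 CPM in Lyve1-low cells, and Apobec1, an RNA-editing deaminase, at 26.2 CPM in resting and 119.8 CPM in Lyve1-low cells. The insulin genes Ins1 and Ins2 were also among the 10, but 1 Lyve1-low cell held 85.4% and 88.2% of the UMIs there. Without each class's own highest cell, Ins2 was at 105 CPM in the members and 91.7 CPM in Lyve1-low macrophages, past 2-fold in neither direction. Leaving out the 4 members and 1 Lyve1-low cell with 1000 CPM or more of endocrine markers, a choice made after the values were seen, gave 71 genes higher and 131 lower.

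Monocyte genes outside the 10 were lower too: Plac8 was at 242 CPM in resting and 739 CPM in Lyve1-low cells, Thbs1 at 18.9 CPM in resting and 60.1 CPM in Lyve1-low cells and Napsa at 25.6 CPM in resting and 78.9 CPM in Lyve1-low cells. Lyz2, lysozyme, was at 3157 CPM in resting and 4594 CPM in Lyve1-low cells and did not pass 2-fold. Of the interferon response list, 0 of 12 measured genes were past 2-fold higher and 4 lower (median log2 ratio -0.65); Irf7, the factor that amplifies interferon, was at 36.2 CPM in resting and 126 CPM in Lyve1-low cells, and Ifitm3, an antiviral membrane protein, at 449.5 CPM in resting and 1129 CPM in Lyve1-low cells. Of the NF-kB and inflammation list, 0 of 11 measured genes were past 2-fold higher and 4 lower (median log2 ratio -0.80). The lower genes were Ccl4, Socs3, Cd83 and Il1b, the last past 2-fold only with 1 Lyve1-low cell, described below. Nfkbia, an NF-kB inhibitor, stood at 442 CPM in resting and 401 CPM in Lyve1-low cells. The chemokine gene Cxcl2 was at 414 CPM in resting and 361 CPM in Lyve1-low cells.

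Chemokine genes split. Of that list, 4 of 16 measured genes were past 2-fold higher and 4 lower (median log2 ratio -0.19). Higher were Pf4, Ccl24, Ccl7 and Ccl12; Ccl24, an eotaxin, was at 358 CPM in resting and 159 CPM in Lyve1-low cells, Ccl7 at 223 CPM in resting and 85.9 CPM in Lyve1-low cells and Ccl12 at 607 CPM in resting and 296 CPM in Lyve1-low cells, both ligands of Ccr2 whose reads may be hard to assign among close paralogs. Ccl2, another such ligand, was at 373 CPM in resting and 212 CPM in Lyve1-low cells, a ratio of 1.76 (1.58 to 1.98), and did not pass. Among the lower were Ccl4, Ccr2 and Cxcl16, the last at 26.2 CPM in resting and 84.4 CPM in Lyve1-low cells. Cx3cr1, the fractalkine receptor of resident macrophages, stood at 741 CPM in resting and 675 CPM in Lyve1-low cells, a ratio of 1.10 (1.02 to 1.18).

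Of the scavenger and lectin receptor list, 6 of 16 measured genes were past 2-fold higher and 1 lower (median log2 ratio -0.03). The higher genes were Mrc1, Stab1, Cd163, Colec12 and Timd4, which the program list also holds, and Cd36. Cd36, which takes up oxidised lipid, was at 183 CPM in resting and 63.0 CPM in Lyve1-low cells, a ratio of 2.91 (2.41 to 3.52). Clec12a, an inhibitory lectin, was lower, at 37.9 CPM in resting and 147 CPM in Lyve1-low cells. The Dectin-2 family members Clec4n, Clec4a1, Clec4a2 and Clec4a3, which are close paralogs, had ratios between 0.583 and 0.759 and none passed. Of the complement list, 0 of 9 measured genes were past 2-fold higher and 2 lower (median log2 ratio 0.25); the lower genes were C3 (7.24 CPM in resting and 29.9 CPM in Lyve1-low cells) and Cfb (15.6 CPM in resting and 70.0 CPM in Lyve1-low cells). C1qb, used to define only the Lyve1-low cells, had a ratio of 1.05 (1.02 to 1.08).

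In iron and heme handling, 1 of 11 measured genes were past 2-fold higher and 2 lower (median log2 ratio 0.40). The higher gene was Cd163. Hmox1, which opens the heme ring, was at 946 CPM in resting and 712 CPM in Lyve1-low cells, Blvrb, a biliverdin reductase, at 624 CPM in resting and 344 CPM in Lyve1-low cells, a ratio of 1.81 (1.66 to 1.98), Slc40a1, the iron exporter ferroportin, at 482 CPM in resting and 325 CPM in Lyve1-low cells and Slc48a1, a heme transporter, at 250.1 CPM in resting and 160.3 CPM in Lyve1-low cells. These 4 ratios lay between 1.33 and 1.81, all under 2-fold. The lower genes were Hp, haptoglobin, at 32.3 CPM in resting and 75.2 CPM in Lyve1-low cells, and Spic, a factor of iron-recycling macrophages, at 8.91 CPM in resting and 30.6 CPM in Lyve1-low cells.

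In lipid handling and efferocytosis, 2 of 14 measured genes were past 2-fold higher and 1 lower (median log2 ratio 0.07). Axl and Gas6, a receptor and its ligand, differed in opposite directions: Axl was at 30.6 CPM in resting and 119 CPM in Lyve1-low cells. Mertk, a related receptor, was at 47.3 CPM in resting and 53.4 CPM in Lyve1-low cells, a ratio of 0.886 (0.67 to 1.17). Abca1, a cholesterol exporter, was at 257 CPM in resting and 135 CPM in Lyve1-low cells and Apoe, the apolipoprotein, at 15132 CPM in resting and 19705 CPM in Lyve1-low cells; neither passed 2-fold. Of the lysosome list, 1 of 25 measured genes were past 2-fold higher and 2 lower (median log2 ratio 0.05). Cd63, a late endosome tetraspanin, was higher at 653 CPM in resting and 315 CPM in Lyve1-low cells, and Ctss, cathepsin S, was lower at 755 CPM in resting and 1953 CPM in Lyve1-low cells. Ctsb, cathepsin B, stood at 4371 CPM in resting and 3055 CPM in Lyve1-low cells.

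Among transcription factors, 0 of 21 measured genes were past 2-fold higher and 2 lower (median log2 ratio -0.34). Spic, already given, was one of the lower. Maf was at 784 CPM in resting and 508 CPM in Lyve1-low cells, a ratio of 1.54 (1.43 to 1.66). Spi1 stood at 443 CPM in resting and 489 CPM in Lyve1-low cells and Mef2c at 367 CPM in resting and 344 CPM in Lyve1-low cells. Of growth factors and cytokines, 2 of 10 measured genes were past 2-fold higher and 1 lower (median log2 ratio -0.01). The higher genes were Igf1 and Vegfb (59.0 CPM in resting and 18.8 CPM in Lyve1-low cells). The lower one was Il1b (3.34 CPM in resting and 19.2 CPM in Lyve1-low cells), but 1 Lyve1-low cell held 30.8% of its UMIs there. Without each class's highest cell Il1b was at 2.79 CPM in resting and 13.3 CPM in Lyve1-low cells, not past 2-fold with 10 CPM added. Of the microglia genes, 0 of 9 measured genes were past 2-fold higher and 3 lower (median log2 ratio -0.21). The lower ones included Tmem119 and Olfml3, with Tmem119 at 24.0 CPM in resting and 82.9 CPM in Lyve1-low cells, and Sall1 was at 0 in the members. Of myeloid receptors, 0 of 18 measured genes were past 2-fold higher and 3 lower (median log2 ratio -0.10): besides Ccr2 these were Itgam, a chain of complement receptor 3, at 36.8 CPM in resting and 84.4 CPM in Lyve1-low cells, and Fcgr4, an Fc receptor for IgG, at 43.4 CPM in resting and 111 CPM in Lyve1-low cells. Of immediate early and heat shock genes, 1 of 19 measured genes were past 2-fold higher and 0 lower (median log2 ratio -0.17). The higher gene was Hspa1a, an inducible heat shock protein with a near-identical paralog, at 232 CPM in resting and 71.1 CPM in Lyve1-low cells, and Fos stood at 1199 CPM in resting and 1680.2 CPM in Lyve1-low cells. Of the O-GlcNAc cycling genes, 3 were measured and none passed, with Ogt at 77.4 CPM in resting and 73.0 CPM in Lyve1-low cells.

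The 49 C1q-high cells with 2 or 3 Lyve1 UMIs belonged to neither class and were not alike. The 14 with 3 UMIs, given above beside the threshold, also had Ccr2 at 51.6 CPM and Cd52 at 267 CPM, near the members' 49.0 and 285 CPM. The 35 with 2 UMIs, at a median of 9580.0 UMIs per cell, had Mrc1 at 561 CPM, Pf4 at 3259 CPM, Ccr2 at 133 CPM and Cd52 at 791 CPM. These 4 summed levels lay between those of the members and of the Lyve1-low macrophages. Whether single cells of that set were intermediate cannot be read from sums.

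Against the 43 dividing Lyve1 macrophages, most measured genes lay within 2-fold. Of 3783 measured genes, 15 (0.397%) were past 2-fold higher in the resting Lyve1 macrophages and 108 (2.85%) past 2-fold lower (3.25% in either direction). All 26 measured genes of the mitosis list, of 30 listed, were among the lower, 3 of which the rule had used. The list's median log2 ratio was -2.60 against 0.07 for all measured genes. A gene higher in the dividing cells was measured only with at least 50 UMIs there, so listed genes with few UMIs there did not count. None of the 18 measured genes of the Lyve1 program passed 2-fold in either direction: Lyve1 was at 1107 CPM in resting and 1035 CPM in dividing cells, Mrc1 at 1162 CPM in resting and 979 CPM in dividing cells, Folr2 at 333 CPM in resting and 277 CPM in dividing cells and Pf4 at 5678 CPM in resting and 5002 CPM in dividing cells. The median was 10445 UMIs per resting cell and 18830 UMIs per dividing cell. The cycling limit was set in raw UMIs, so deeper cells could reach it more easily. Depth was thus tied to the split, and its part in these levels was not tested.

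The 10 genes furthest below the dividing cells were Hist1h2ap, Nusap1, Ube2c, Top2a, Mki67, Kif22, Ccnb1, Aurkb, Tpx2 and Plk1. Hist1h2ap, a replication-dependent histone whose reads can be shared within its large family, was at 229 CPM in resting and 4980.2 CPM in dividing cells. Ube2c, the ubiquitin-conjugating enzyme of mitotic exit, was at 49.6 CPM in resting and 516 CPM in dividing cells, Ccnb1, the mitotic cyclin, at 20.1 CPM in resting and 201 CPM in dividing cells, and Plk1, a mitotic kinase, at 8.36 CPM in resting and 109 CPM in dividing cells. Of 18 measured replication genes, 5 were past 2-fold lower and none higher, with a median log2 ratio of -0.72. Of 7 measured genes of cell cycle exit, none was past 2-fold higher and 2 were lower: Cdkn2c at 22.3 CPM in resting and 165 CPM in dividing cells and Cdkn2d at 17.8 CPM in resting and 68.6 CPM in dividing cells, both inhibitors of cyclin-dependent kinases.

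Among genes higher in the resting cells, Rbp4, Pyy and Iapp came first, and for each of them 1 cell held 53.8%, 73.8% and 51.6% of their UMIs. Without each gene's highest cell in either class, Rbp4 was at 33.6 CPM in resting and 3.65 CPM in dividing cells, and Pyy at 56.6 CPM in resting and 41.2 CPM in dividing cells. Iapp was then at 24.6 CPM in resting and 7.54 CPM in dividing cells. Only for Rbp4 did these levels differ by more than 2-fold with 10 CPM added. Mxd4, a Myc antagonist of cells that leave the cycle, was at 85.2 CPM in resting and 30.1 CPM in dividing cells, a ratio of 2.83 (1.85 to 4.52). Ccl12 was at 607 CPM in resting and 266 CPM in dividing cells, a ratio of 2.28 (1.97 to 2.65). The remaining 5 were Rasa4, a Ras GTPase-activating protein, at 29.0 CPM in resting and 3.61 CPM in dividing cells, Syngr1 at 48.5 CPM in resting and 13.2 CPM in dividing cells, Pld3, a lysosomal nuclease, at 105 CPM in resting and 36.1 CPM in dividing cells, Cdca7 at 41.8 CPM in resting and 10.8 CPM in dividing cells, and Fscn1, an actin bundler, at 99.7 CPM in resting and 39.7 CPM in dividing cells. Cdkn1a, the p21 inhibitor of cyclin-dependent kinases, stood at 164 CPM in resting and 99.8 CPM in dividing cells, and Ccnd1, cyclin D1, at 146 CPM in resting and 117 CPM in dividing cells; neither passed. Collagen transcripts were lower in the resting cells (Col3a1 at 16.7 CPM in resting and 97.4 CPM in dividing cells), but 1 dividing cell held 76.5% of the UMIs there, and without each class's highest cell the levels were 15.2 CPM in resting and 23.7 CPM in dividing cells.

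Against the 33 Ly6c2 monocytes the members stood far apart. Of 3238 measured genes, 471 (14.5%) were past 2-fold higher in the resting Lyve1 macrophages and 149 (4.6%) past 2-fold lower (19.1% in either direction), with a median log2 ratio of 0.28. The split depended on the minimum, since 50 UMIs are a higher level in the smaller class: with a minimum of 50 CPM in the higher class, added after the values were seen, 314 genes were higher and 335 lower. All 18 measured genes of the Lyve1 program were higher, with a median log2 ratio of 3.01. All 11 measured monocyte genes, of 20 listed, were lower, with a median of -3.66. A gene higher in the monocytes was measured only with at least 50 UMIs there, so listed genes with few UMIs did not count. Ly6c2, C1q and Lyve1 had been used to define the monocytes, so the direction of these genes describes the choice.

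By ratio the 10 genes furthest above monocytes were Lyve1, Dab2, Gas6, Pf4, Mrc1, Ednrb, Folr2, Fcna, Igfbp4 and Fcrls. Dab2 was at 1862 CPM in the members and 88.5 CPM in monocytes, a ratio of 21.0 (15 to 30.6), Gas6 at 929 CPM in the members and 48.3 CPM in monocytes, and Fcrls, an Fc receptor-like scavenger protein of microglia and other resident macrophages, at 864 CPM in the members and 67.0 CPM in monocytes. F13a1, which monocytes also carry, was at 1843 CPM in the members and 716 CPM in monocytes, a ratio of 2.57 (2.27 to 2.93). Among those furthest below monocytes were Ly6c2, S100a8, Stfa1, Hp, Plac8, Ms4a4c, Ifitm6, Stfa3 and Napsa. S100a8, an alarmin of monocytes and neutrophils, was at 22.8 CPM in the members and 1175 CPM in monocytes, and Plac8 at 242 CPM in the members and 3977 CPM in monocytes. In Cpa1-high cells S100a8 and Plac8 were at 22.6 and 203 CPM, near the members' levels. Stfa1 and Stfa3 belong to a family of near-identical cystatins and their counts are uncertain one by one.

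The transcripts that took the largest shares of the members' UMIs, as 3′ UMI counts with no scaling by gene length, were Tmsb4x, a thymosin that binds actin, at 23998 CPM, Ftl1, the ferritin light chain, at 17940.4 CPM, the nuclear RNA Malat1 at 15196 CPM and Apoe at 15132 CPM. Pf4 was the seventh of the list at 5678 CPM. The remaining names among the leading 20 were Actb, Fth1, Ctsb, Itm2b, Selenop, Fcer1g, Eef1a1, C1qb, C1qc, Lyz2, Ppia, C1qa, B2m, Tyrobp and Actg1. All but Pf4 of these 20 genes lay within 2-fold of the Lyve1-low macrophages.

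Members differed among themselves beyond counting noise in a limited number of genes. In 147 members thinned to 5000 UMIs, 746 genes had a mean of at least 1 UMI, and their squared coefficient of variation in excess of counting noise had a median of 0.0639; 97 genes reached 0.25 and 13 reached 1. The excess was 0.562 for Folr2, the most uneven of the 5 markers, 0.265 for Lyve1, 0.195 for Mrc1, 0.186 for Pf4, 0.198 for Stab1, 0.142 for F13a1 and 0.0674 for C1qb, which is no marker of the class. Lyve1 had its lower end set by the rule. The 15 most uneven genes were Pyy, Hist1h2ap, Fcna, Ccl12, Hmox1, Cxcl2, Ccl7, Ifi27l2a, Ccl2, Hgsnat, Btg2, Klf2, Ccl3, Sdc4 and Trf.

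These uneven genes fell into a few kinds. Pyy, with an excess of 78.6, was the 1-cell case already described. The chemokines Ccl12, Cxcl2, Ccl7, Ccl2 and Ccl3 had excesses between 1.01 and 2.77; Ccl12 had no UMI in 56 of the 147 thinned cells and up to 29 in one. Fcna had no UMI in 75 cells and up to 23, an excess of 4.17. Hmox1 had a median of 3 UMIs and up to 57, an excess of 2.19, and Trf, transferrin, a median of 3 and up to 33. Between pairs of these genes no rank correlation exceeded 0.246, a weak relation in sparse counts.

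Hist1h2ap was carried by few cells. It had no UMI in 92 of the 147 thinned members, and 5 cells held 63% of its UMIs. The 6 members with 10 or more Hist1h2ap UMIs, a set picked after the values were seen, had the replication list at a sum of 3687 CPM, against 1278 CPM in the other 149 members, and the mitosis list at 1807 CPM in the 6 and 688 CPM in the others. Lyve1 was at 1058 CPM in the 6 and 1109 CPM in the others. The limit of 5 cycling UMIs therefore left some cells with replication transcripts among those called resting.

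**Figure D4:**
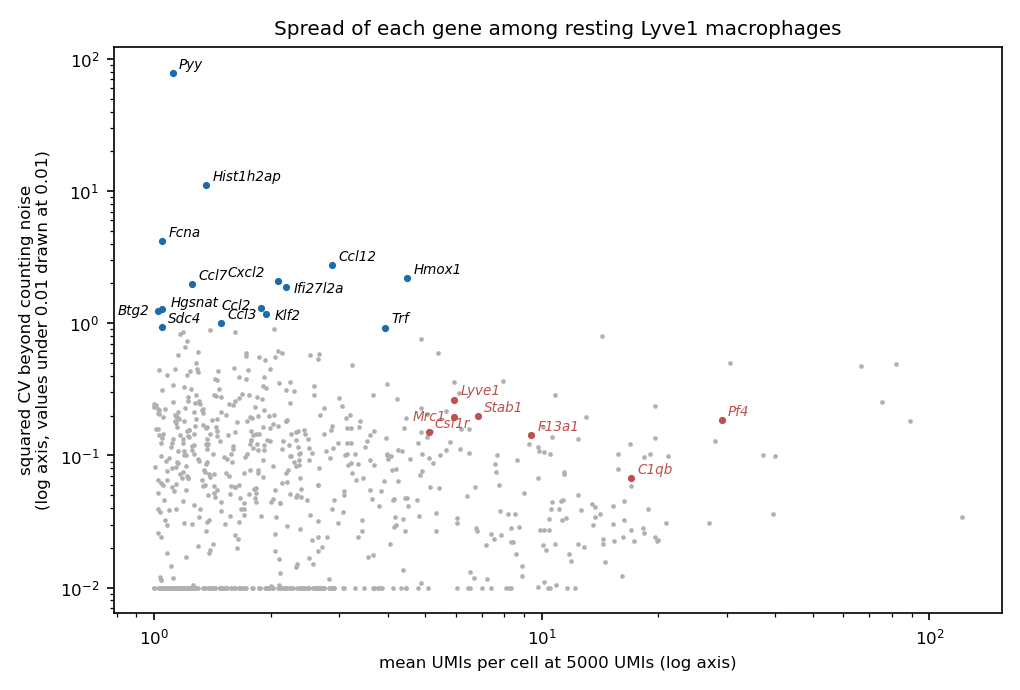
Squared coefficient of variation beyond counting noise (vertical, log axis, values under 0.01 drawn at 0.01) against mean UMIs per cell (horizontal, log axis) for 746 genes in 147 members thinned to 5000 UMIs, 1 point per gene. The 15 most uneven genes are blue and 7 macrophage genes red; Pyy and Hist1h2ap stand highest, and the 7 red genes, among which Folr2 is not drawn, lie under 0.3.

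Across the range of Lyve1 within the members, several genes of the program differed modestly. Members were put in bands of under 700 CPM (49 cells), 700 to 1400 CPM (57 cells) and 1400 CPM or more (49 cells) of Lyve1. The median depth of these bands was 11111, 10756 and 8466 UMIs per cell in the same order. The rule set its Lyve1 minimum in raw UMIs, so shallow cells with low Lyve1 CPM could not be members. Depth was thus tied to the bands, and its part in the levels below was not tested. From the lowest to the highest band Mrc1 was at 956, 1190.0 and 1388 CPM, with intervals of 882 to 1035 CPM in the lowest and 1286 to 1495 CPM in the highest band. Folr2 was at 241, 370.0 and 402 CPM, Pf4 at 5103, 5292 and 6927 CPM and F13a1 at 1533, 1897 and 2168 CPM. Fcna was at 137, 304 and 314 CPM, and Stab1 at 1220.4, 1226 and 1328 CPM, with overlapping intervals in the outer bands for Stab1 alone of these 6. C1qb was at 3483, 3499 and 3279 CPM. In the other direction, Cd52 was at 385, 249 and 205 CPM, Apoe at 16996, 14555 and 13519 CPM, Selenop at 4215, 3970.1 and 3438 CPM and Ctss at 878, 695 and 678 CPM. Actb, a structural gene, was at 8852, 11939 and 14140.2 CPM.

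**Figure D5:**
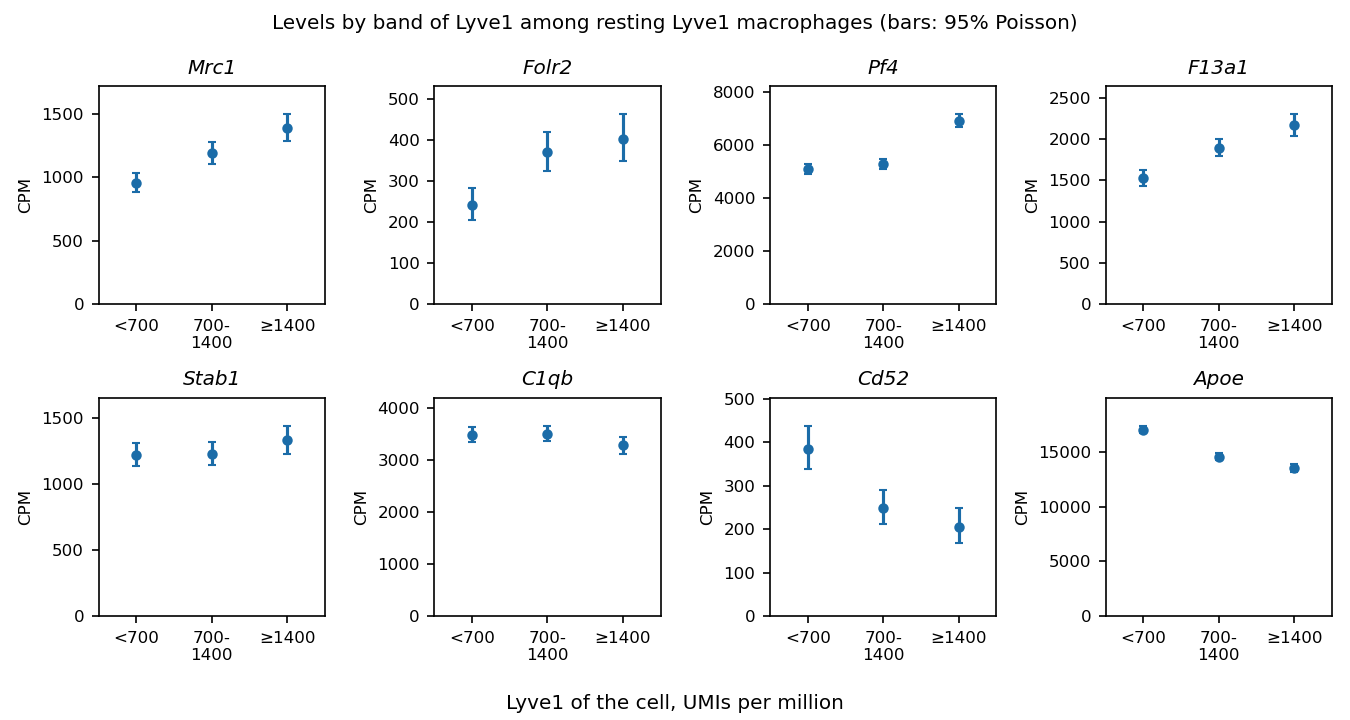
Summed level (CPM) of 8 genes in the members by band of Lyve1 (under 700, 700 to 1400 and 1400 CPM or more; 49, 57 and 49 cells), with exact Poisson 95% intervals as bars. Mrc1, Folr2 and F13a1 are highest and Cd52 and Apoe lowest in the top band, and C1qb is level.

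Bands of summed cells do not show how tight a relation is in single cells. Over 147 members thinned to 5000 UMIs, the rank correlation with Lyve1 was at most 0.29 (F13a1) among 136 listed genes, followed by 0.26 for Pf4 and 0.26 for Mrc1, and at the lower end -0.27 for Apoe and -0.24 for Cd52. These cells share 1 library, and at a mean of 5.94 Lyve1 UMIs per thinned cell counting noise alone weakens any correlation, so the values are given as a description.

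Xist and Y-linked transcripts lay mostly in separate members. Xist, the RNA of the inactive X chromosome, was found without a Y-linked UMI in 26 members and Y-linked transcripts (Ddx3y, Eif2s3y, Kdm5d, Uty) without Xist in 79; 10 members held both and 40 neither. The median depth was 9303 UMIs in the Xist cells and 11766 UMIs in the Y-linked cells. Lyve1 was at 1084 CPM in Xist cells and 1109 CPM in Y-linked cells, Mrc1 at 1220.3 and 1141 CPM, Stab1 at 1189 and 1291 CPM, and F13a1 at 1783 and 1896 CPM. Pf4 differed more, at 4808 CPM in Xist cells and 5861 CPM in Y-linked cells, as did Selenop at 3399 and 4018 CPM and Ccr2 at 28 and 57.6 CPM in the same order. Hspa1a was at 87.4 and 306 CPM and Ccl12 at 874 and 595 CPM. The number of embryos behind each set is not given in the sources used here, so sex and embryo cannot be told apart.

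In the OGT KO library the rule found 6 cells, of 7 with 4 or more Lyve1 UMIs; the seventh exceeded the Cpa1 limit. The 6 cells held 11710 to 41951 UMIs each. All 6 had macrophage transcripts, with Lyve1 between 596 and 1623 CPM, Mrc1 between 501 and 1087 CPM, Pf4 between 2026 and 5551 CPM and C1qb between 1621 and 3405 CPM. The cell with the most UMIs also held Col1a1 at 2193 CPM, a mesenchymal collagen, and at most 252 CPM in the other 5.

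Summed, Lyve1 was at 1055 CPM (893 to 1239) in the OGT KO cells and 1107 CPM in the control cells, and Mrc1 at 772 CPM (634 to 931) in the OGT KO cells and 1162 CPM in the control cells. Pf4 was at 3605 CPM (3298 to 3932) in the OGT KO cells and 5678 CPM in the control cells, C1qb at 2209 CPM (1971 to 2469) in the OGT KO cells and 3432 CPM in the control cells and Csf1r at 489 CPM (380.2 to 618) in the OGT KO cells and 997 CPM in the control cells. Ctrb1, an acinar protease gene, was at 1926 CPM (1704 to 2169) in the OGT KO cells and 1378 CPM in the control cells, so the share of non-macrophage transcripts differed alongside. Ogt held 14 UMIs in 4 of the 6 cells, 99.1 CPM (54.2 to 166) in the OGT KO cells and 77.4 CPM in the control cells. Whether Cre had acted in these cells was not tested. With 6 cells, 1 library per genotype and different sorting markers, no difference between genotypes can be drawn from these values.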

How the data were processed

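Gene-level UMI count tables, 1 per genotype, were deposited by the authors as raw, unnormalized counts; the submitters' processing notes name Cell Ranger 2.0.0, Seurat 2.0 and DESeq2 1.14.1 and the mouse build mm10. Ensembl IDs (27998) were given symbols from the reference table; 353 had none. The members and the gene lists were chosen with earlier results of these data known. Counts were summed per class and divided by the class total, and a gene was measured in a comparison with at least 50 UMIs in 10 or more cells of the higher class. Ratios past 2-fold were counted with 10 CPM added; ratios printed with an interval have none added. The text names the genes of the fixed lists, the 10 with the largest ratio in each direction of each comparison, the 15 with the most spread and the 20 highest; a few genes these rules pick are not reported here. On simulated Poisson counts, the ratio's interval held for 95.9%, 95.7% and 96.1% of unchanged genes in the dividing, Lyve1-low and monocyte comparisons. The interval assumes such counts, which lack the spread between cells, so this checks the calculation only. Doublets were kept: Scrublet marked 6 of 941 control barcodes (0.638%), 1 of them a member, and leaving them out was an alternative. With 1 library per genotype there were no replicates and no tests between genotypes. Alternatives were other limits, minimums, pseudocounts, depths and scalings (TMM factors from edgeR 4.0.16 in R 4.3.3). Python 3.11.15, numpy 2.4.6, scipy 1.17.1, pandas 2.3.3, scanpy 1.11.5 and matplotlib 3.10.9 were used.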

Additional observations from a re-analysis of the deposited data

How the results depend on the processing

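No paired analysis was possible because each genotype had 1 library whose sequencing runs were deposited as 1 table. The number of members was 101 with a Lyve1 minimum of 8 UMIs and 42 with 16 UMIs. Against dividing cells, 55 genes were higher with 1 CPM added, 3 with 50 CPM added, 28 with a minimum of 20 UMIs in 5 cells, 30 with no minimum and 8 with a minimum of 50 CPM, and 68, 180 and 212 were lower with 50 CPM added, with 20 UMIs in 5 cells and with no minimum. Against Lyve1-low macrophages, 113 genes were higher and 199 lower with 1 CPM added, and 25 and 32 with 50 CPM added. Against monocytes, 166 were higher with 50 CPM added, and 324, 535 and 335 lower with 20 UMIs in 5 cells, no minimum and a minimum of 50 CPM. The summed Lyve1 program was 19057 CPM, 19700 CPM as a mean over cells and 19578 CPM thinned. Genes with an excess spread of 0.25 or more were 59 at 3000 UMIs, and 7 of the 15 most uneven were then shared. Without the cells rich in endocrine markers, an alternative chosen after seeing the data, 13 genes were higher and 109 lower against dividing cells, and 459 and 147 against monocytes. Without the Lyve1-low cell highest in class II, also chosen after seeing the data, 74 were higher and 129 lower against Lyve1-low macrophages. Added CPM and minimums cannot move a gene's own ratio. Of 216 values of single genes under the other alternatives, 191 kept within their counting interval, 25 moved and none reversed, and none of 192 ratios moved by over 1.5 times. The 191 include ratios against dividing cells and monocytes without the Lyve1-low cell highest in class II, which that cell could not move.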
